A study of Mus musculus with 2 samples.

Results

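The miR-30 family comprised 6 microRNA (miRNA) genes of the 1973 listed in small-RNA libraries of embryonic mouse lung. The 6 were taken by name (Mir30a, Mir30b, Mir30c-1, Mir30c-2, Mir30d and Mir30e), and all 6 had reads in both libraries. The libraries formed 1 group of 2 biological replicates of lung from B6NCrl embryos at embryonic day 14.5, made from total RNA with inserts below 30 nt. No treatment, engineered allele or second stage was named, so no contrast between conditions could be drawn. Each sample was labelled as the lung of 1 pup and also as pooled male and female, so the number of embryos behind a library was not settled, and the labels gave the replicates different collection days.

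miRNAs are cut from hairpin precursors as short mature strands, one from each arm (5p and 3p), and recognise messenger RNAs mainly through their seed, bases 2 to 8. Members of the miR-30 family share a seed on the 5p arm. The family is known for restraining Snai1, a driver of the epithelial-to-mesenchymal transition, and connective tissue growth factor, which promotes matrix deposition, and it is described as abundant in lung, heart and kidney.

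The genes lie as neighbours at 3 loci (mm10, GENCODE M21). Mir30e (chromosome 4, 120772606 to 120772697) and Mir30c-1 (120769534 to 120769622) sit on the minus strand, 2983 bases apart, in introns of Nfyc, which encodes a subunit of the CCAAT-binding factor NF-Y. Mir30a (chromosome 1, 23272269 to 23272339) and Mir30c-2 (23291701 to 23291784) sit on the plus strand, 19361 bases apart. No other annotated gene overlapped Mir30a, whereas the whole Mir30c-2 hairpin lay in an exon of the long intergenic RNA Gm27028. Mir30b (chromosome 15, 68337415 to 68337510) and Mir30d (68341208 to 68341289) sit on the minus strand, 3697 bases apart. The Mir30d hairpin lay wholly in an exon of the long intergenic RNA Gm20732, and 16 of the 96 bases of the Mir30b hairpin fell in an exon of the transcript Gm26621.

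Sequences of 4 of the 6 genes were matched in RefSeq (GRCm38.p6): Mir30a, Mir30e, Mir30c-1 and Mir30c-2. Mir30b and Mir30d are named only. The mature strands are shown because their likeness decides which reads can be given to 1 gene. Each is written 5′ to 3′ with the seed in capitals.
mmu-miR-30e-5p: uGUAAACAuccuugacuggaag
mmu-miR-30a-5p: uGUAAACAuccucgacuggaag
mmu-miR-30c-5p: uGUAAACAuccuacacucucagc
mmu-miR-30e-3p: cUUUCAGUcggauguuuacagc
mmu-miR-30a-3p: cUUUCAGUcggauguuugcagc
mmu-miR-30c-1-3p: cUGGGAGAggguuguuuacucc
mmu-miR-30c-2-3p: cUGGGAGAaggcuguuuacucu

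The 5p strands of these genes were identical from base 1 to base 12 and differed from base 13 on, counted from the 5′ end. With miR-30a-5p as the reference, miR-30e-5p differed by the single change C13U and miR-30c-5p by 5 changes over the 22 bases compared. On the 3p arm the genes fell into 2 seed groups. One group held miR-30a-3p and miR-30e-3p, which differed by the single change G18A. The other held the 3p strands of miR-30c-1 and miR-30c-2, which differed by 3 changes, none of them in the seed (0). Of 1679 mature miRNAs in the same RefSeq table, 4 carried the GUAAACA seed, and the fourth beside the miR-30 strands was miR-384-5p. Strands of Mir30b and Mir30d had no entry there and could not be counted. Mir384, looked up after its sequence match was seen, held 14 and 7 counts, far below the leading miR-30 genes.

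Levels were counts on the strand of the gene per 1000000 such counts over all miRNA genes (CPM). Replicate 1 held 5128214 gene-strand counts and replicate 2 held 2332032, so 1 count was worth 0.195 and 0.429 CPM. The files give 1 value per hairpin gene, so reads of the 5p and 3p arms cannot be separated. Reads cover a mature strand rather than the hairpin, and the strands shown are 22 or 23 nt long, so levels were compared per read without scaling by hairpin length.

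Together the miR-30 genes held 184358 of the gene-strand counts in replicate 1, a share of 3.59% (95% exact binomial interval 3.58 to 3.61), and 108665 in replicate 2, a share of 4.66% (4.63 to 4.69). The mean share was 4.13% ± 0.753 (SD, n = 2). All intervals here reflect counting error alone, since reads copied during amplification are not separate molecules. Reads that map to several places were 32.9% and 33.1% of all reads and were assigned to no gene. With these and the other mapped, unassigned reads in the denominator the family share was 2.39%, so shares of assigned counts are not shares of all miRNA reads.

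Mir30e, Mir30a and Mir30d, 1 at each locus, carried almost all reads assigned to the family. Of these Mir30e, from an Nfyc intron, was highest, with 20012 CPM in replicate 1 and 26055 CPM in replicate 2 (23033 ± 4272, SD, n = 2). It ranked 13 of all genes in each library. Mir30a followed with 10778 and 14013 CPM (12396 ± 2287) at ranks 20 and 16, and Mir30d with 4838 and 6172 CPM (5505 ± 944) at ranks 42 and 36. For all 3 of these the lowest library of the higher gene lay above the highest library of the next gene. Replicate 2 held the higher level of each.

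Their neighbours at the same loci were far lower. Mir30b held 178 and 207 CPM (192 ± 20.8). Mir30c-1 held 91.6 and 91.8 CPM (91.7 ± 0.0818), from 470 and 214 counts. Mir30c-2 was lowest, with 52.1 and 58.7 CPM (55.4 ± 4.72) from 267 and 137 counts. The order Mir30e, Mir30a, Mir30d, Mir30b, Mir30c-1, Mir30c-2 was the same in both libraries, and no 2 neighbours in it overlapped. With 2 libraries an exact two-sided sign test cannot go below p = 0.5, so none was used for the order.

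**Figure D1:**
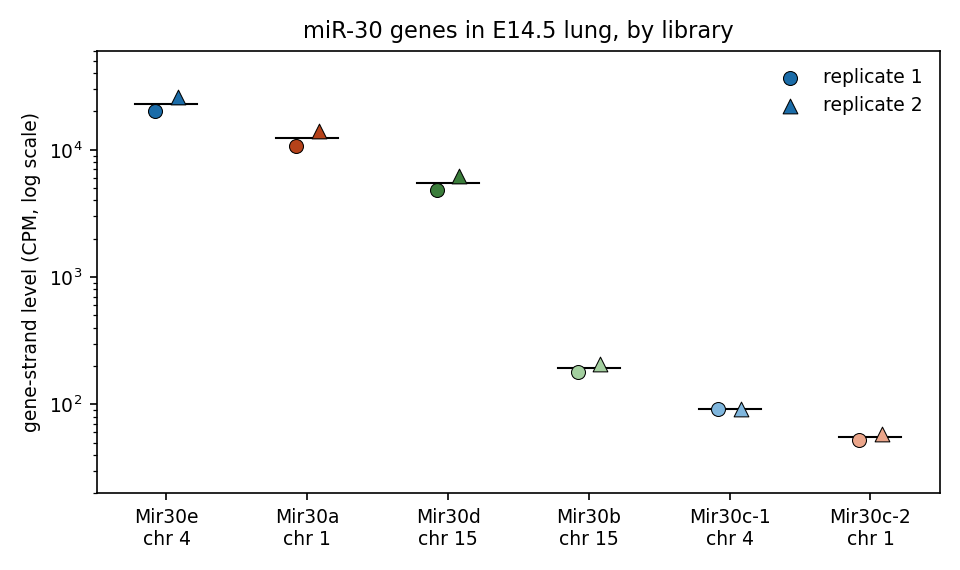
Level of each miR-30 gene (CPM, log axis) in replicate 1 (circles) and replicate 2 (triangles), with the mean as a bar and genes coloured by locus. Mir30e, Mir30a and Mir30d lie between 4838 and 26055 CPM, and Mir30b, Mir30c-1 and Mir30c-2 lie at or below 207 CPM.

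At these levels each member stood beside unrelated miRNAs. Mir30e ranked between Mir130a (31709 ± 1486 CPM) and Mir99b (19142 ± 701). Mir99b, at 19638 and 18646 CPM, was lower than Mir30e in both libraries. Mir30a came between Mir21a (12443 ± 184) and Mir23a (11423 ± 663). Its place was not settled, because Mir30a was below both in replicate 1 and above both in replicate 2. Mir30d lay between Mir181c (5546 ± 353) and Mir15a (5450 ± 144), also with a crossing of the libraries. Among the low members, Mir30b lay between Mir874 (193 ± 3.97) and Mir700 (191 ± 35.4). Mir30c-1 lay between Mir495 (92.8 ± 0.856) and Mir675 (91.4 ± 8.44), and Mir30c-2 between Mir26a-2 (55.6 ± 3.49) and Mir196b (53.6 ± 35.8). Their places were not settled either, because each of them changed order with a neighbour between the libraries.

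Within each locus 1 gene far outnumbered its neighbour among assigned reads. The ratios at the loci of miR-30c are upper bounds to the extent that miR-30c reads were left unassigned. Mir30e exceeded Mir30c-1 by 218-fold (exact interval 199 to 240) in replicate 1 and by 284-fold (248 to 326) in replicate 2. Their mean log2 ratio was 7.96 ± 0.27 (SD, n = 2). Mir30a exceeded Mir30c-2 by 207-fold (184 to 234) and 239-fold (202 to 284), a log2 ratio of 7.80 ± 0.14. The imbalance was smaller on chromosome 15, where Mir30d exceeded Mir30b by 27.2-fold (25.5 to 29.1) and 29.8-fold (27.2 to 32.7), a log2 ratio of 4.83 ± 0.09. These ratios were taken within a library and need no scaling between libraries. Assigned counts of neighbouring genes were unlike at all 3 loci.

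The Mir30c-1 and Mir30c-2 hairpins are printed because they hold the same mature 5p strand, with their longest shared stretch in capitals (28 bases).
Mir30c-1: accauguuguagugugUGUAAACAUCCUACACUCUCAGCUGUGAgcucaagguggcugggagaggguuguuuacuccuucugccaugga
Mir30c-2: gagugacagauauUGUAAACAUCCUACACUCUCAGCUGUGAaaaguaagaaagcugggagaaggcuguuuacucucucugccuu
Mir30c-1 lies at chr4:120769534-120769622, minus strand, and Mir30c-2 at chr1:23291701-23291784, plus strand. The shared stretch covers the whole of miR-30c-5p. A read of that strand alone matches both loci equally well. The tables list multimapping reads apart from the genes, but do not show which miRNAs they came from.

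In sliding windows of 20 nt, 9 of 70 windows of Mir30c-1 and 9 of 65 of Mir30c-2 also occurred in the other hairpin, and in no further hairpin of the table. Mir30e and Mir30a had 0 of 73 and 0 of 52 windows in another of the 1005 hairpins in the table. Their mature strands of the same arm differed by 1 base, and the number of mismatches allowed in alignment is not given in the sources used here. Mir30b and Mir30d were not among the hairpins, so the likeness of the other members to them was not compared. The counts of Mir30c-1 and Mir30c-2 are best read as lower bounds, and how many of the multimapping reads were miR-30c was not tested. On the reads that were assigned, Mir30c-1 exceeded Mir30c-2 by 1.76-fold (exact interval 1.51 to 2.05) in replicate 1 and by 1.56-fold (1.25 to 1.95) in replicate 2.

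Let-7, miR-26 and miR-181, also spread over several loci, were compared in the same way. Among genes of the let-7 family, the 5 with each arm in a single hairpin ranged from 4130 to 51133 CPM in mean level, and the 5 sharing an arm with another hairpin from 107 to 2225 CPM. In the miR-26 family Mir26b, whose arms occur in 1 hairpin, stood at 32468 CPM, and Mir26a-1 and Mir26a-2, which share an arm, at 21.2 and 55.6 CPM. In the miR-181 family Mir181d stood at 5304 CPM with no shared arm and 4 genes with a shared arm at 39.1 to 2020 CPM. For miR-30 the corresponding ranges were 12396 to 23033 CPM for Mir30a and Mir30e and 55.4 to 91.7 CPM for the miR-30c genes. Mir30b (192 CPM), Mir30d (5505 CPM) and Mir181c (5546 CPM), the highest gene of the miR-181 family, had no sequence and could not be placed in either set. In each of these 4 families every gene with a shared arm was below every gene without one, among the genes with a sequence in the table. This did not hold in 2 further sets looked at after their values were seen. Mir92-1, which shares an arm, stood at 4114 CPM, above Mir92b with no shared arm at 1324 CPM. Mir16-1, which shares an arm, stood at 3516 CPM, above Mir15b with no shared arm at 3010 CPM.

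**Figure D2:**
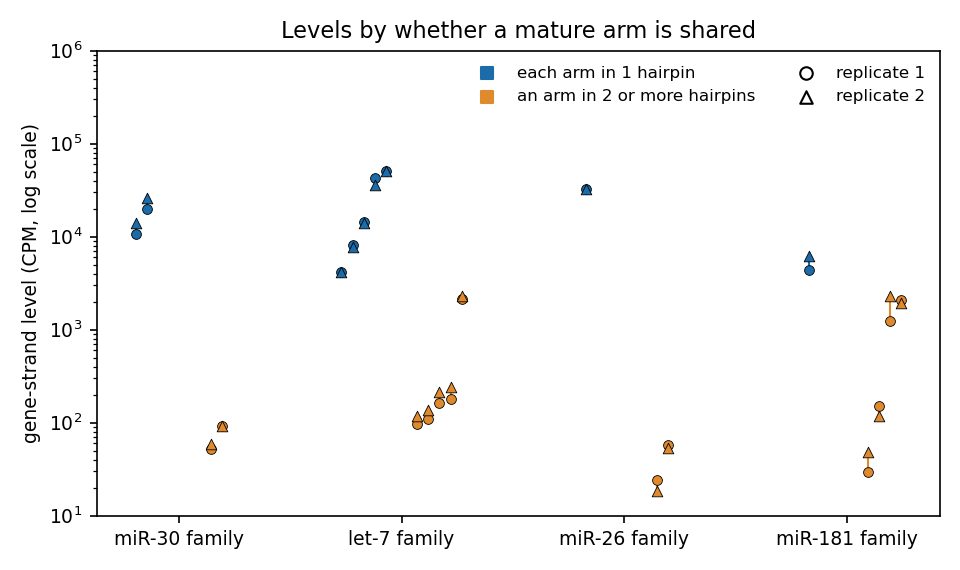
Level (CPM, log axis) of genes in 4 miRNA families, split by whether a mature arm occurs in 1 hairpin (blue) or in 2 or more (orange), with replicate 1 as circles, replicate 2 as triangles and a line joining the libraries of a gene. The miR-30c genes lie at 52.1 to 91.8 CPM and Mir30a and Mir30e at 10778 to 26055 CPM. Genes without a sequence, among them Mir30b and Mir30d, are not shown.

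No read was counted on the strand opposite to any miR-30 gene (0 counts in all). This includes the antisense locus Mir30f, annotated on the plus strand over the same bases as Mir30e. It had no row of its own in the count tables. A count of 0 is compatible with 3 counts at most, equal to 0.585 CPM (replicate 1) or 1.29 CPM (replicate 2). Its annotated mature strand is shown because its seed, in capitals, is moved by 1 base against the miR-30 seed.
mmu-miR-30f: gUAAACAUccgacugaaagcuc

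The division of reads among the loci was nearly the same in both libraries, although the family total was not. The chromosome 4 locus supplied 55.9% of the miR-30 total (exact interval 55.7 to 56.1) in replicate 1, and 56.1% (55.8 to 56.4) in replicate 2. The chromosome 1 locus supplied 30.1% (29.9 to 30.3) and 30.2% (29.9 to 30.5). The chromosome 15 locus supplied 13.95% (13.8 to 14.1) and 13.7% (13.5 to 13.9). For each locus the intervals of the libraries overlapped. Mir30e alone made up 55.7% and 55.9% of the family, Mir30a 29.98% and 30.1% and Mir30d 13.5% and 13.2%. The other 3 members each held under 1%, with 0.494% and 0.444% for Mir30b. Mir30c-1 held 0.255% (exact interval 0.232 to 0.279) and 0.197% (0.171 to 0.225), so its intervals did not overlap.

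The ratio of the leading genes shows this most closely. Mir30e exceeded Mir30a by 1.86-fold (exact interval 1.84 to 1.88) in replicate 1 and again by 1.86-fold (1.83 to 1.88) in replicate 2. Mir30a exceeded Mir30d by 2.23-fold (2.19 to 2.26) and 2.27-fold (2.23 to 2.32). The log2 ratios were 0.89 ± 0.0015 and 1.17 ± 0.0192 (SD, n = 2), whereas the genes themselves differed by about 1.3-fold between libraries, 1.30-fold for Mir30a and Mir30e and 1.28-fold for Mir30d. The leading genes of 3 chromosomes thus differed between the libraries by nearly the same factor.

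**Figure D3:**
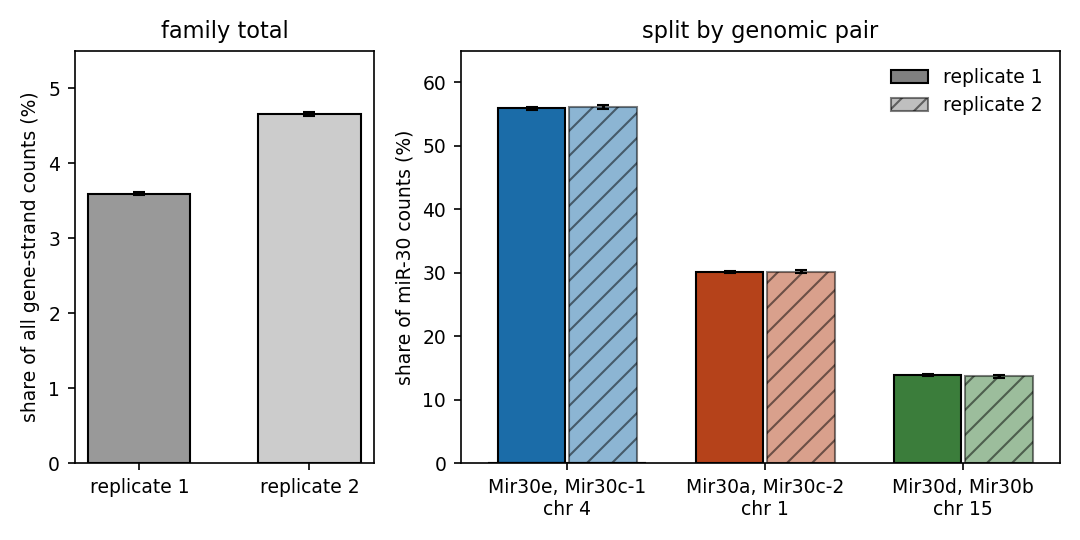
Left, share of all gene-strand counts held by the miR-30 family (%) in each library; right, share of miR-30 counts (%) from each locus in replicate 1 (solid) and replicate 2 (hatched), with 95% exact binomial intervals as error bars. The total differs (3.59% and 4.66%), while the share of the chromosome 4 locus is 55.9% and 56.1%.

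The difference between the libraries was tested for all genes with at least 10 counts, by an exact two-sided binomial test on TMM-scaled library sizes. It compares the reads of these libraries, not conditions. TMM (trimmed mean of M values) scales libraries so that most genes stay level. Of 404 genes tested, 169 passed a Benjamini-Hochberg adjusted p of 0.05, which is 41.8%. Of the 6 miR-30 genes, 3 passed and all 3 were higher in replicate 2, beside 17.8% of all genes higher and 24.0% lower in replicate 2. Mir30e was higher by 0.29 on the log2 scale, with an adjusted p too small for the software to hold. Mir30a was also higher by 0.29 (exact binomial adjusted p = 5.96e-177), and Mir30d by 0.26 (adjusted p = 4.00e-65). The family sum was higher by 0.28.

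Calls came easily at high levels: above a mean of 100 CPM the test was passed by 138 of 187 genes (73.8%), with 55 (29.4%) higher in replicate 2. In the order of these 187 genes the log2 ratios of Mir30e, Mir30a and Mir30d held places 21, 22 and 27 from the top, and the median was -0.03. The low members did not pass: the log2 ratio was 0.13 for Mir30b (exact binomial adjusted p = 0.200), 0.08 for Mir30c-2 (adjusted p = 0.764) and -0.09 for Mir30c-1 (adjusted p = 0.664). With library totals instead of TMM the value for Mir30c-1 was 0.0018, and Mir30b passed (log2 ratio 0.22, exact binomial adjusted p = 0.0189). The median over the 6 was 0.20, beside -0.03 for all genes tested.

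With the spread of the replicates added to counting error, none of the members passed. The common dispersion, estimated with edgeR from the same 2 libraries, gave a coefficient of variation of 18.3% between replicates. In a beta-binomial test with that dispersion 1 of 404 genes passed (0.248%), 0 of them miR-30 genes (adjusted p = 1 for each member). The log2 differences of 0.26 to 0.29 were thus larger than counting error. The dispersion came from the same difference between the libraries that it was used to test, so few genes could pass. That the members did not pass therefore cannot decide whether they differ more than replicates usually do.

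**Figure D4:**
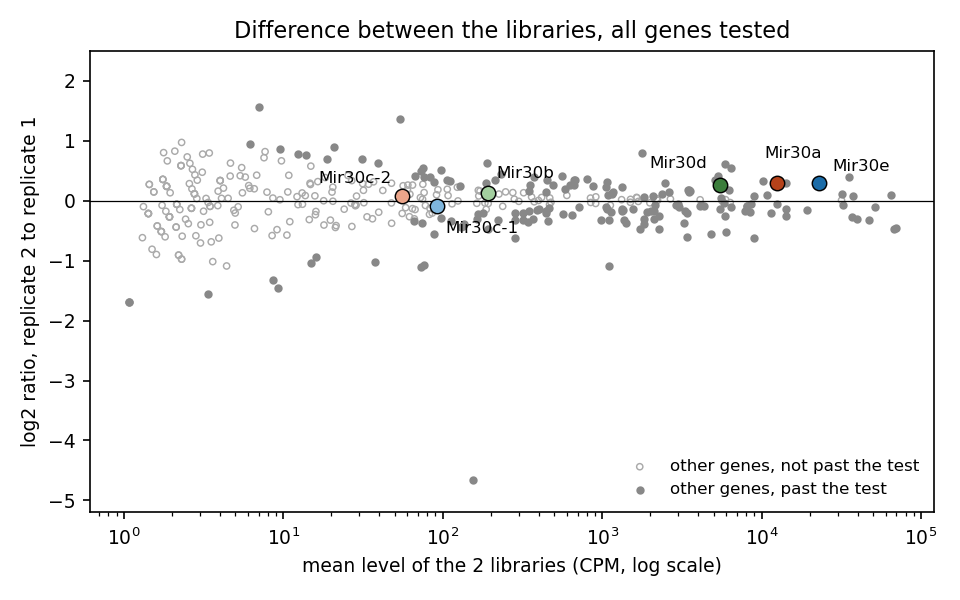
Log2 ratio of replicate 2 to replicate 1 (TMM-scaled, pseudocount 1 CPM) against mean level (CPM, log axis) for 404 genes, with genes past the exact binomial test filled and the others open, and miR-30 genes coloured. Mir30e, Mir30a and Mir30d lie at 0.26 to 0.29, and Mir30b, Mir30c-1 and Mir30c-2 between -0.09 and 0.13.

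Among 102 other genes of at least 1000 CPM, those whose log2 ratio between the libraries was closest to that of the miR-30 sum (0.28) were Mir20a (0.29), Mir425 (0.30) and Mir16-2 (0.31). This likeness rests on a single ratio over 2 libraries. Mir20a held 12413 and 16128 CPM, Mir425 2147 and 2813 CPM, and Mir16-2 919 and 1212 CPM.

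The comparison families and marker lists below were read against the same 41.8% of all genes called, or 73.8% of genes of at least 100 CPM. With the common dispersion added, Mir208a was the 1 gene that passed, so all other calls in these lists were lost. In the let-7 family 7 of 10 tested genes passed, 2 higher and 5 lower in replicate 2, with a median log2 ratio of -0.04. In the miR-26 family 1 of 3 passed, Mir26b, lower in replicate 2 after TMM scaling (-0.07), with a median of -0.21. Unscaled, Mir26b was higher in replicate 2 (32273 and 32663 CPM). So was Mirlet7b (4127 and 4132 CPM), 1 of the 5 let-7 genes called lower. The direction of both thus depends on the scaling. In the miR-181 family 6 of 6 passed, 4 higher and 2 lower, with a median of 0.23. Whether the families differ in this respect was not tested.

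miRNAs that act on processes linked to miR-30 were placed beside it. The epithelial miR-200 family, which restrains Zeb1 and Zeb2, held 3.33% and 3.37% of counts against 3.59% and 4.66% for miR-30. Of its 5 genes 2 passed, Mir200c higher (0.09) and Mir429 lower (-0.26) in replicate 2. A list of 10 miRNAs known to act on connective tissue growth factor or on matrix genes (the miR-133 and miR-29 genes, Mir18a, Mir19a and Mir19b-1) held 0.596% and 0.617% of counts, 95.4% of it in each library from Mir18a (listed as Mir18). Of these, 5 had enough counts to be tested and 2 passed, with a median log2 ratio of -0.04 over the 5. Mir29a was lower in replicate 2 (104 and 90.9 CPM, log2 ratio -0.28). Mir18a had a log2 ratio of -0.04 after TMM scaling, but its unscaled level was higher in replicate 2 (5687 and 5885 CPM), so its direction depends on the scaling. Several of these also have further copies in the genome, so their counts may be lower bounds as well.

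Levels of markers of other cell types are given beside the miR-30 values. The striated muscle list, 9 miRNAs in the tables, summed to 370 CPM in replicate 1 and 57.5 CPM in replicate 2. Of 5 tested, 3 were lower and 1 higher in replicate 2, the largest being Mir208a at 299 and 11.6 CPM. Of that list, Mir133a-1 and Mir133a-2 were at 0 in both libraries. As copies of the same miRNA they may lose reads to multimapping, so this does not show absence, and the sums of the list may be lower bounds. The miR-30 genes that passed were higher in replicate 2. Mir126a of endothelium stood at 76033 and 58438 CPM. The smooth muscle miRNAs Mir143 and Mir145a together stood at 79791 and 62023 CPM, the erythroid pair Mir451a and Mir144 at 497 and 392 CPM, and the 3 white blood cell miRNAs at 691 and 662 CPM. The hepatocyte miRNA Mir122 was at 22.4 and 39.5 CPM, and the 5 neuronal miRNAs had 1 count in each library. These neuronal genes are copies of Mir124a and Mir9, and reads that match several copies were assigned to no gene. Their counts may thus be lower bounds and do not show absence. Mir126a, Mir143, Mir451a, Mir144 and Mir223 of white blood cells were lower in replicate 2 in the exact binomial test. Mir122 (log2 ratio 0.70), Mir155 of white blood cells (0.40) and Mir206 of striated muscle (0.86) were higher. Mir145a (exact binomial adjusted p = 0.525) and Mir150 of white blood cells (adjusted p = 0.210) did not pass. The part of these differences in the miR-30 result was not tested, and in whole tissue fewer cells of a type and less RNA per cell cannot be told apart. The epithelial, endothelial and smooth muscle miRNAs of the labelled tissue were all present. None of the listed miRNAs is particular to lung, so the label was not checked beyond that.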

How the data were processed

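miRNA-seq counts were analysed for 2 libraries of E14.5 mouse lung. The authors deposited whole-number counts per miRNA gene, from alignments to mm10 with GENCODE M4 per the deposited readme; aligner, counter and settings: not given in the sources used here. The 3 columns per table were, on the values, counts without regard to strand, on the strand of the gene and on the opposite strand. The gene-strand column was used. The 4 summary entries stayed out of library sizes (unmapped 12.7% and 11.7% of reads, multimapping 32.9% and 33.1%). Identifiers were matched to GENCODE M21, 1894 of 1973. No sample column was left unused (0).

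CPM, shares, exact binomial intervals and ratios were computed with Python 3.11.15 and scipy 1.17.1. TMM factors over all genes and the common dispersion came from edgeR 4.0.16, and size factors over genes with at least 10 counts from DESeq2 1.42.0. Log2 ratios used a pseudocount of 1 CPM. Alternatives were other denominators, the unstranded column, each replicate left out, other scalings, count filters and pseudocounts, and added dispersion. TMM over genes with at least 10 counts was added after the data had been seen.

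Named were the 6 members, their neighbours in rank, the 3 genes with the most similar ratio, and the leading or called members of the comparison lists. Mir384, the miR-92 and miR-15/16 genes and single members of the comparison and marker lists were named outside this rule, after their values were seen. Members and lists were chosen with earlier results of these data known.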

Additional observations from a re-analysis of the deposited data

How the results depend on the processing

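The family share of 4.13% lay between 3.59% and 4.66% with 1 replicate left out. It was 2.39% with multimapping and other mapped unassigned reads in the denominator and 1.82% without Mir30e. The shares of the loci and the ratios within them were little tested by these alternatives: the column without regard to strand holds the same counts for the members, and with 2 libraries leaving out 1 cannot move a mean by more than 1 SD. Without Mir30c-1 and Mir30c-2 the chromosome 4 share was 55.99%, and with a pseudocount of 1 count the log2 ratio of Mir30e to Mir30c-1 was 7.96. With 1 replicate left out, the chromosome 4 share ranged from 55.9% to 56.1%, and the log2 ratio of Mir30e to Mir30c-1 from 7.77 to 8.15. With the common dispersion added, 1 gene passed in place of 169, and 0 miR-30 genes in place of 3. The other alternatives gave 163 to 177 genes, among them 3 or 4 miR-30 genes. The log2 ratio of Mir30c-1 between the libraries, -0.09 in the test described, was 0.0018 with library totals, which shift all ratios by 0.09. Library totals also moved the split of calls to 112 higher and 65 lower in replicate 2, from 72 and 97, and DESeq2 size factors to 81 and 83. For Mir30c-1 and Mir30c-2 depth limited the ratios, with 137 to 470 counts a library. No paired analysis was possible because there is 1 group.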
